A study of Homo sapiens with 2 samples.

Results

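Gain bins are 100 kb stretches of autosomal DNA in which the acute myeloid leukemia (AML) cell line OCI-AML3 was more highly methylated than the AML cell line AML5 at CpG-poor sites. They were chosen by the methylation difference itself. A CpG-poor site is a CpG dinucleotide with at most 10 other CpGs within 500 bp with more than 5 reads in each of the lines. The level of a bin is the mean methylated share of its CpG-poor sites, and at least 50 such sites were required. A gain bin had an OCI-AML3 level more than 10 percentage points above AML5, which held for 1708 of the 26390 bins tested (6.47%), or 170.8 Mb of 2639 Mb. Since this contrast selected the members, their differences are given as descriptions without a test.

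Both lines are established human AML lines grown in culture, and the comparison is that of a DNMT3A mutant line with a DNMT3A wild-type line. OCI-AML3 carries a heterozygous R882C mutation of DNMT3A, and AML5, which the sample record calls OCI-AML5, has wild-type DNMT3A. Each was profiled by whole-genome bisulfite sequencing (WGBS), in which unmethylated cytosines are converted and read as thymine, with 1 library per line. The lines come from different patients, so the DNMT3A genotype, every other difference between the lines and the library cannot be told apart. Each library listed 28217448 CpG dinucleotides, with 902802339 calls in OCI-AML3 and 894828667 in AML5 and autosomal medians of 28 and 31 calls per CpG. Where calls are pooled, Wilson 95% intervals are given. They cover counting error only, and can be too narrow because 1 read can cover several CpGs.

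As background, DNMT3A is a de novo DNA methyltransferase, whereas DNMT1 copies methylation onto the new strand after replication. In many cancers and cultured cells, methylation is kept at high levels in gene-rich, early-replicating DNA and is partly lost over long gene-poor, late-replicating stretches that are called partially methylated domains. Within such domains, isolated CpGs flanked by A or T usually lose methylation most, whereas CpG islands can become methylated there.

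Short sequences from the bin with the largest difference show what a CpG-poor site is. This bin, chr21:26400001-26500000 (GRCh37, hg19), holds no protein-coding gene, and its annotated genes are the lncRNAs LINC01692, ENSG00000244278, ENSG00000232512 and ENSG00000223870 and a processed pseudogene. From each flank class the most isolated site was taken, with the number of calls deciding ties and methylation playing no part. The sequences are 42 bases of the reference plus strand, with the CpG and its flanking bases in capitals.
A or T on both sides, chr21:26497829-26497870: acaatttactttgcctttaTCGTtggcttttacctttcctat
A or T on 1 side, chr21:26448060-26448101: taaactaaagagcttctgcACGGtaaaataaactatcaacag
G or C on both sides, chr21:26445051-26445092: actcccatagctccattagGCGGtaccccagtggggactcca
The first site had no other CpG within 500 bp and was methylated in 30 of 32 calls in OCI-AML3 (93.8%) and in 13 of 29 in AML5 (44.8%). The second, also without a neighbour, was methylated in 21 of 21 calls in OCI-AML3 and in 1 of 18 in AML5 (5.56%). The third had 1 neighbouring CpG and was methylated in 29 of 30 calls in OCI-AML3 (96.7%) and 15 of 39 in AML5 (38.5%). All 3 sites were thus nearly fully methylated in OCI-AML3 and at 44.8% or less in AML5. Over all sites of this bin the order of the classes in AML5 was a gradient. The 129 sites with A or T on both sides averaged 86.5% in OCI-AML3 and 33.8% in AML5. The 164 sites with A or T on 1 side averaged 89.2% and 49.1%. The 45 sites with G or C on both sides averaged 93.1% and 72.3%.

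The levels of the gain bins placed OCI-AML3 near its usual level and AML5 well under its own. Both levels enter the rule, which leaves little room for bins that are high in AML5. The OCI-AML3 level had a median of 77.3% and ran from 54.2% to 93.2%. Over all bins tested, the OCI-AML3 median was 72.2%. The AML5 level of the gain bins had a median of 54.5% and ran from 40.2% to 80.3%, whereas its median over all bins was 82.0%. The median difference was 19.4 percentage points among gain bins and -8.57 over all bins. In the opposite direction, 11793 bins (44.7%) were more than 10 points lower in OCI-AML3.

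**Figure D1:**
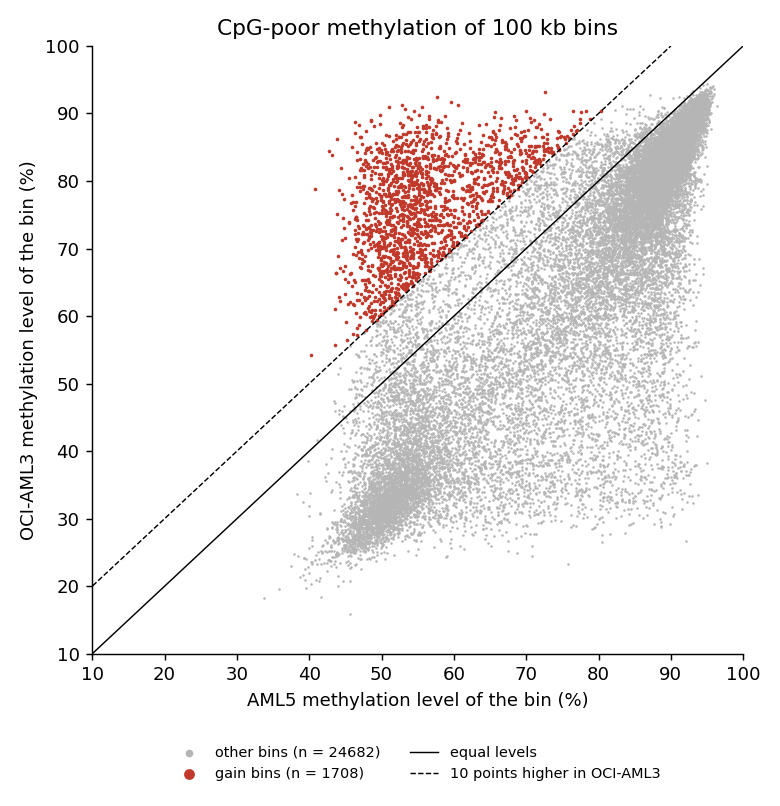
CpG-poor methylation level (%) of each 100 kb bin in AML5 (horizontal axis) and OCI-AML3 (vertical axis), 1 point per bin and 1 library per line. The 1708 gain bins (red) lie above the dashed line of a 10-point difference, with AML5 quartiles of 51.0% and 59.9%, whereas most other bins lie below the solid line of equal levels.

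Most gain bins were partially methylated in AML5. A limit of 65%, chosen after the data were seen, was used to describe this. In 1464 gain bins (85.7%) the AML5 level was under it, as it was in 30.5% of all bins. A gain bin must be lower in AML5 than in OCI-AML3, so this contrast is in part set by the rule. Conversely, of the 8039 bins with an AML5 level under 65%, 1464 (18.2%) were gain bins and 4824 (60.01%) were more than 10 points lower in OCI-AML3. The 6575 bins under the limit that were not gain bins had nearly the same AML5 median as the gain bins, 53.1%, but an OCI-AML3 median of 36.9%. Since the OCI-AML3 level enters the rule, this gap between the groups is set by the choice of bins. In OCI-AML3, 132 gain bins (7.73%) were under 65%, against 40.8% of all bins, a contrast that the rule sets in part as well.

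The size of the difference ran from just over 10 to 42.4 points. It was above 15 points in 1220 gain bins, above 20 in 823 (48.2%), above 30 in 197 and above 40 in 8. Near the threshold there was no break. The bins just under it were chr12:59500001-59600000 at 9.989 points, chr5:41600001-41700000 at 9.995 and chr13:55400001-55500000 at 9.999. The bins just above were chr2:59500001-59600000, chr21:19200001-19300000 and chr13:86700001-86800000, each at 10.04 points. The one at chromosome 2 stood at 84.6% in OCI-AML3 and 74.5% in AML5. It was thus highly methylated in both lines, unlike the bin just under the threshold at chromosome 12, with 62.3% and 52.4%.

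The 10 bins with the largest difference lay on only 4 chromosomes, and none held a protein-coding gene. In chr21:26400001-26500000, 338 sites averaged 88.7% in OCI-AML3 and 46.3% in AML5. Pooled over calls, 87.8% (95% interval 87.0 to 88.5) of 7733 calls were methylated in OCI-AML3 and 46.8% (45.8 to 47.9) of 8876 in AML5. In chr20:6300001-6400000 the levels were 86.2% and 43.9%, a difference of 42.4 points as well. Its neighbours chr20:6400001-6500000, with 83.8% and 43.2%, and chr20:6500001-6600000, with 88.9% and 48.5%, were also among the 10. Both overlap the lncRNA gene CASC20. On chromosome 21, chr21:20000001-20100000 stood at 84.4% and 42.8% and chr21:26600001-26700000 at 89.1% and 48.5%. On chromosome 3, chr3:77700001-77800000 stood at 88.3% and 46.8%. The remaining bins formed 1 stretch on chromosome 13, chr13:62200001-62500000, whose bins had OCI-AML3 levels of 87.1%, 90.9% and 89.8% and AML5 levels of 46.4%, 51.0% and 49.8%. In OCI-AML3 this stretch was read at 0.322 to 0.420 times the depth of the median bin.

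Gain bins were unevenly spread over the chromosomes. Chromosome 21 had the largest share, 80 of 350 bins (22.9%), followed by chromosome 13 with 152 of 953 (15.9%) and chromosome 20 with 70 of 581 (12.05%). Chromosomes 4 and 5 had 8.30% and 8.24%. At the other end, chromosome 19 had 1 gain bin of 464, chromosome 22 had 4 of 330, chromosome 17 had 9 of 730 and chromosome 15 had 15 of 807. The median difference of the gain bins varied much less between the chromosomes with more than 50 of them, from 16.8 points on chromosome 14 to 23.4 on chromosome 21. In every chromosome the median over all bins was negative, from -11.3 points on chromosome 18 to -4.07 on chromosome 21.

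**Figure D2:**
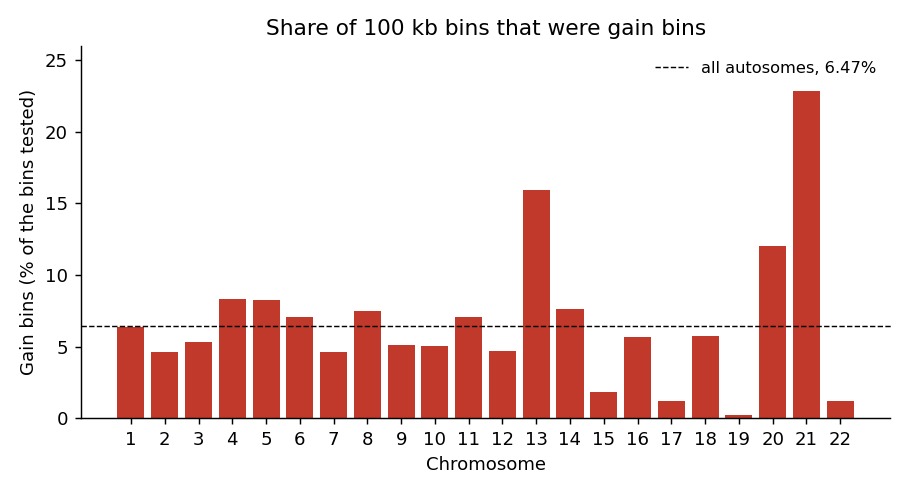
Gain bins as a percentage of the 100 kb bins tested on each autosome (bars). Chromosomes 21, 13 and 20 stand at 22.9%, 15.9% and 12.05%, above the 6.47% of all autosomes (dashed line), and chromosome 19 stands at 0.216%.

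Read depth differed along these genomes, and its values stand beside the gain bins here. Relative depth is the number of calls per CpG of a bin over that of the median autosomal bin of the line. Its median over gain bins was 0.794 in OCI-AML3 and 0.840 in AML5. The ratio of both had a median of 0.918 among gain bins, with a range of 0.377 to 2.37, and of 0.982 over all bins. Gain bins on chromosome 13 had medians of 0.398 in OCI-AML3 and 0.751 in AML5, and those on chromosome 5 had medians of 1.38 and 0.868. In 193 gain bins (11.3%), against 11.5% of all bins, the ratio was under 0.8, and 93 of the 193 lay on chromosome 13. In 160 (9.37%), against 13.7% of all bins, it was over the inverse of that limit, and 103 of the 160 lay on chromosome 5. The median difference was 20.8 points in the former, 20.2 in the latter and 18.8 in the 1355 gain bins between them. It was 18.6 points in the 528 gain bins whose relative depth was between 0.8 and its inverse in both lines. Such bins made up 30.9% of the gain bins and 39.9% of all bins. In 12 gain bins (0.703%) the relative depth was over 2 in either line, against 2.39% of all bins. Gain bins were therefore present where OCI-AML3 was read less deeply, more deeply and about equally.

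Most gain bins lay in long runs. The 1708 bins formed 469 runs of adjacent bins. Of these, 185 were single bins, 184 held 2 to 4 bins and 100 held 5 or more. The 100 long runs took in 1015 gain bins (59.4%), and the 36 runs of 10 or more took in 604 (35.4%).

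The longest run, chr13:61200001-66900000, held 57 bins. In OCI-AML3 its bins averaged 78.3%, with bins from 63.3% to 90.9%, and 52.0% in AML5, with bins from 44.1% to 66.8%. The ranges of the bins met only between 63.3% and 66.8%. The difference averaged 26.3 points and ran from 11.3 to 40.7. It includes PCDH20 and the end of PCDH9, both of which encode protocadherins, cell adhesion proteins of neurons, and the gene models ENSG00000197991, ENSG00000237378 and ENSG00000285566. The median relative depth of its bins was 0.335 in OCI-AML3 and 0.734 in AML5. Between the marks of 60 Mb and 70 Mb of chromosome 13, 69 of 100 bins were gain bins.

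**Figure D3:**
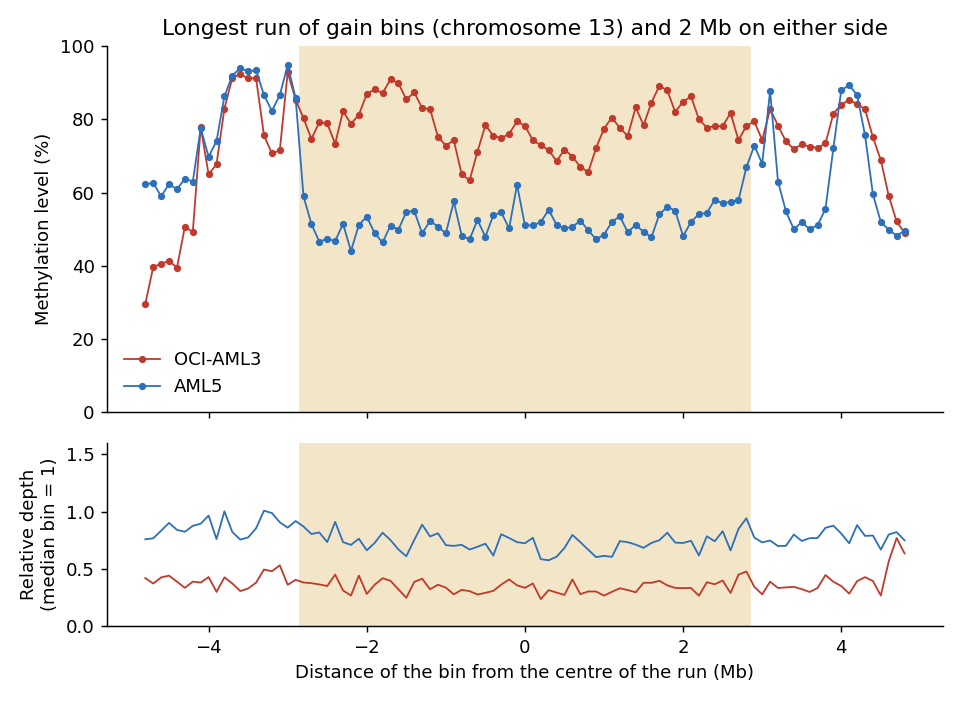
Methylation level (%, upper panel) and relative depth (lower panel) of the 100 kb bins of the longest run of gain bins (shaded) and of 2 Mb on either side, by distance from its centre in Mb, with OCI-AML3 in red and AML5 in blue. Inside the run AML5 averaged 52.0% and OCI-AML3 78.3%, whereas the bins next to its left edge were high in both lines, and the relative depth of OCI-AML3 was below that of AML5 throughout.

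The next runs showed the same kind of values on other chromosomes and at other depths. In chr5:22900001-26500000, 36 bins averaged 78.5% in OCI-AML3 and 54.0% in AML5, at median relative depths of 1.39 and 0.823. It includes CDH10, a neuronal cadherin gene, and PRDM9, which encodes the histone methyltransferase that marks sites of meiotic recombination. In chr6:65300001-68200000, 29 bins averaged 83.0% and 57.7%, at median relative depths of 0.651 and 0.721. It includes a part of EYS, a photoreceptor gene, and ZC3H11C. In chr1:81800001-84300000, 25 bins averaged 84.1% and 59.2%, and ADGRL2, which encodes the adhesion receptor latrophilin, overlaps it. In chr4:28200001-30600000, 24 bins without a protein-coding gene averaged 72.9% and 52.3%. The OCI-AML3 depth was under that of AML5 in the run on chromosome 13 and over it in the run on chromosome 5. Their differences averaged 26.3 and 24.5 points, and a link with depth was not tested.

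Across the edges of the long runs, which the rule set, the level changed more in AML5 than in OCI-AML3. The 200 bins that flanked the 100 runs had medians of 73.2% in OCI-AML3 and 70.5% in AML5, and 137 of them were higher in OCI-AML3. In steps of 10 kb, sites at 500 kb outside the edges averaged 67.8% in OCI-AML3 and 70.1% in AML5. In the last step outside it was 73.1% and 64.5%, and in the first step inside 72.9% and 62.4%. From 240 kb to 250 kb inside it was 78.3% and 54.1%. Against the step at 500 kb outside, this was a difference of -16.0 points in AML5 and 10.5 in OCI-AML3. The edges were set by the same values, and bins beyond them had to have a difference of at most 10 points, so the position of the step is no finding. The levels of both lines entered the rule, so the sizes of their changes are descriptions as well.

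Within the gain bins most pieces of 10 kb differed in the same direction as the bin. Of 16842 pieces of 10 kb with at least 10 CpG-poor sites, 16470 (97.8%) were higher in OCI-AML3, against 17.3% of the pieces of all bins. The difference exceeded 10 points in 84.6% of the pieces. In 1402 of the 1679 gain bins with at least 8 such pieces (83.5%), every piece was higher in OCI-AML3. The pieces hold the sites that chose the bins, so the contrast with all bins is largely set by the rule.

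Single sites lay in the high range more often in OCI-AML3, and in the partial and the low range more often in AML5. The gain bins held 582749 CpG-poor sites. In OCI-AML3, 64.2% of them had a level above 80%, 27.8% were between 20% and 80% and 7.95% were under 20%. In AML5 these shares were 36.5%, 41.4% and 22.0%. The level was more than 20 points higher in OCI-AML3 at 42.8% of the sites and more than 20 points lower at 5.98%. Over all bins, the corresponding shares were 7.57% and 25.3%. The CpG-poor sites chose the gain bins, so this contrast is largely set by the rule. The spread between the sites of a bin was large in both lines, with a median SD of 27.5 points in OCI-AML3 and 34.2 in AML5.

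The difference was larger the more isolated the CpG. Sites of gain bins without another CpG within 500 bp averaged 69.5% in OCI-AML3 and 42.6% in AML5, 26.9 points apart. With 1 to 2 neighbours the difference was 25.1 points, with 3 to 5 it was 21.8 and with 6 to 10 it was 18.3. Sites with up to 10 neighbours chose the bins, so the sign of their difference is set by the rule. Sites with more neighbours did not enter it. Their difference was 12.9 points with 11 to 20 neighbours and 7.61 with 21 to 40. With over 40 neighbours, a density usual in CpG islands, the order turned, and 35528 sites averaged 55.3% in OCI-AML3 and 61.2% in AML5, so that the difference was -5.96 points. Over all bins the difference was negative in each of these classes, from -11.6 points without a neighbour to -3.01 with over 40.

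**Figure D4:**
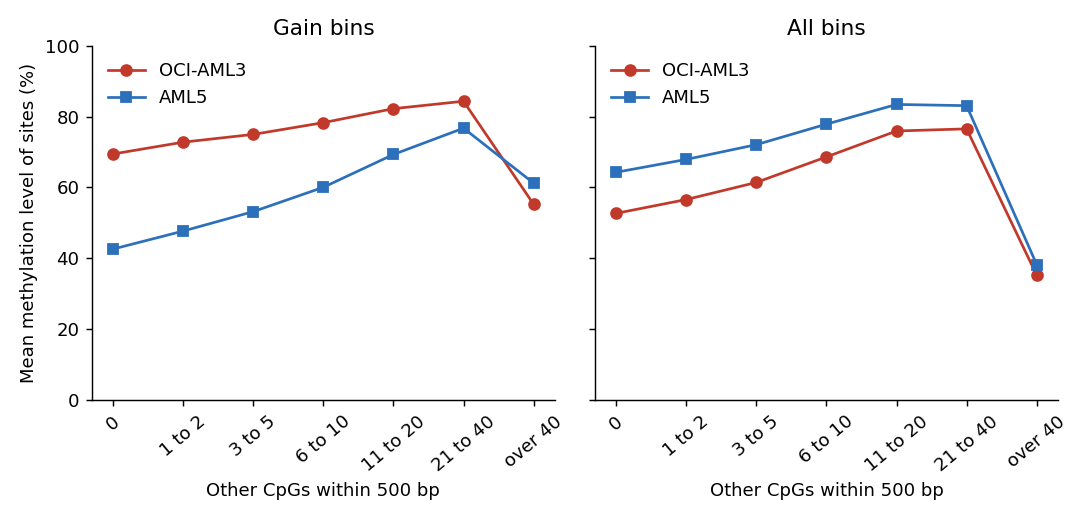
Mean methylation level (%) of CpG sites by the number of other CpGs within 500 bp, in gain bins (left) and in all bins (right), with OCI-AML3 in red and AML5 in blue. In gain bins the gap of 26.9 points at isolated sites narrows with CpG density and turns to -5.96 points with over 40 neighbours, whereas in all bins OCI-AML3 is the lower line in every class.

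The flanking bases ordered the sites in the same way, as did the class averages of the chromosome 21 bin with the printed sequences. The printed single sites did not follow this order. CpG-poor sites of gain bins with A or T on both sides averaged 67.6% in OCI-AML3 and 41.6% in AML5, 25.99 points apart. With A or T on 1 side the levels were 79.7% and 60.9%, 18.8 points apart. With G or C on both sides they were 85.6% and 72.7%, 12.9 points apart. In the other bins with an AML5 level under 65%, AML5 had similar levels in these classes, 38.3%, 58.1% and 70.5%. There OCI-AML3 stood at 25.6%, 43.0% and 57.8%.

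CpG-dense sites, with more than 10 other CpGs within 500 bp, did not choose the bins, though they come from the same libraries. In 1706 gain bins with at least 10 such sites, they stood at a median of 84.6% in OCI-AML3 and 71.6% in AML5. The median difference was 11.2 points, with a range of -31.6 to 35.3. OCI-AML3 was higher in 1611 of the 1706 (94.4%), against 14.0% of all bins, where the median difference was -5.83 points. Neighbouring sites can be covered by the same reads, so this measure is not independent of the rule.

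Gain bins were poor in GC, CpGs and genes. The median GC content was 36.96%, against 39.8% over all bins. A gain bin held a median of 618 CpGs, against 813. No protein-coding gene overlapped 1103 gain bins (64.6%), against 34.0% of all bins, and no gene of any kind overlapped 19.96%, against 8.89%. A protein-coding transcription start site (TSS) was present in 170 gain bins (9.95%), against 37.4% of all bins. These features were largely shared with the other bins under 65% in AML5, which had a median GC content of 38.2% and 656 CpGs, and of which 58.9% had no protein-coding gene.

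Promoters in gain bins split by their CpG number. A promoter is taken here as the 2000 bp before and after the outermost TSS of a protein-coding gene. It needed at least 10 sites with more than 5 reads in each line. Of the 218 genes with a TSS in a gain bin, 212 had such a promoter. In 37 of these (17.5%) the promoter was more than 20 points higher in OCI-AML3, against 1.68% of the 18887 autosomal promoters. In 42 (19.8%) it was more than 20 points lower, against 8.58% of all promoters. Both directions were thus more frequent than over all promoters. The 119 promoters with fewer than 100 sites, a limit set after the data were seen, had medians of 83.3% in OCI-AML3 and 65.0% in AML5, and 98 of them were higher in OCI-AML3. The 93 with 100 or more sites had medians of 22.2% and 45.9%, and 25 of them were higher in OCI-AML3. In the former class 33 (27.7%) were more than 20 points higher and 6 (5.04%) lower, against 1.32% and 14.96% over all such promoters. In the latter 4 (4.30%) were higher and 36 (38.7%) lower, against 1.88% and 4.92%. The same classes over all promoters had median differences of -7.14 and -3.82 points. The lower AML5 level of CpG-poor promoters is of the kind that chose the bins, so it is no separate result.

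Sequences of the 250 bases before a TSS show both kinds of promoter. Among promoters with a TSS in a gain bin, they belong to the one with the largest increase at the read minimum of 5 and to one of those with the largest decreases. They are printed on the strand of the gene with each CpG in capitals.
OR4L1, chr14:20527954-20528203, plus strand: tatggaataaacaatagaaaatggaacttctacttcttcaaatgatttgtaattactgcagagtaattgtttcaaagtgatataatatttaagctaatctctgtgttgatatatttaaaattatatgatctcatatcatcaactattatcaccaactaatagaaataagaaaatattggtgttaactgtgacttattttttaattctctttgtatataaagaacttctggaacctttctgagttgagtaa
CADM1, chr11:115375676-115375925, minus strand: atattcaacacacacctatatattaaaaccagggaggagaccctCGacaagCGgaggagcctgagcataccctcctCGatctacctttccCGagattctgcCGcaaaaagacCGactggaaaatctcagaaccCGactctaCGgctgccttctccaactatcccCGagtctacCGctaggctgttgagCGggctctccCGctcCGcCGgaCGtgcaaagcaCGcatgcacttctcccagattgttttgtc
The stretch before OR4L1 holds no CpG at all, and the 17 sites of its promoter lie farther from the TSS. The stretch before CADM1 holds 16 CpGs, which averaged 2.81% in OCI-AML3 and 45.3% in AML5 on 885 and 621 calls.

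Among promoters with a TSS in a gain bin, 3 of the 8 with the largest increase belonged to olfactory receptors, on 17, 14 and 11 sites. Olfactory receptors were 24 of the 218 genes with a TSS in a gain bin, and an excess of this family was not tested. The promoter of OR4L1, an olfactory receptor gene, was at 84.2% in OCI-AML3 and 42.2% in AML5. Pooled over calls, this was 82.3% (95% interval 78.0 to 85.9) of 356 calls and 48.4% (43.9 to 52.8) of 486. With more than 10 reads required in both lines, its difference was 25.2 points in place of 42.1, below that of CD1E at 43.1. EYS stood at 88.8% and 50.5%, and CD1E, a lipid antigen-presenting molecule of dendritic cells, at 72.0% and 33.9%. COL6A6, a collagen chain, stood at 84.5% and 50.6%, and OR10T2 at 84.8% and 51.2%. PLCXD3 stood at 87.9% and 56.8%, OR10Z1 at 66.7% and 36.8%, where 1000 bp on each side of the TSS gave 19.6 points in place of 29.9, and LRRC52 at 91.8% and 61.9%. These 8 promoters held 11 to 90 sites each, under the limit of 100.

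All 8 promoters with the largest decrease held more than 100 sites. FAM135B was at 17.7% in OCI-AML3 and 67.7% in AML5, on 12216 and 7529 calls. CADM1, a cell adhesion gene, was at 10.1% and 56.5%. Pooled over calls, this was 8.43% (95% interval 7.892 to 9.003) of 9619 calls and 58.2% (57.1 to 59.4) of 6558. KCNIP4, a potassium channel-interacting protein gene, was at 23.7% and 67.9%, and CNR1, which encodes the cannabinoid receptor of neurons, at 6.09% and 47.6%. TENM4, a teneurin gene, was at 11.7% and 51.7% and TLE1, a transcriptional corepressor gene, at 7.68% and 47.2%. RUNX1T1, the fusion partner of RUNX1 in a subtype of AML, was at 22.96% and 62.0%, and SYT10, a synaptotagmin gene, at 34.3% and 72.9%. The bin of CNR1 stood at 81.2% in OCI-AML3 and 54.9% in AML5, so promoter and bin differed in opposite directions.

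The longest stretches of genes inside gain bins belonged to very long genes. EYS had 1617 kb inside, 81.4% of its length, and its body averaged 86.1% in OCI-AML3 and 64.5% in AML5. MACROD2, which encodes an ADP-ribose hydrolase, had 1400 kb inside. Its promoter, with 158 sites, stood at 67.9% in OCI-AML3 and 17.8% in AML5. RBMS3, an RNA-binding protein gene, had 1184 kb inside and overlaps the model ENSG00000283563, which had 1209 kb inside. SGCZ, a sarcoglycan gene, had 1096 kb inside, nearly its whole length, with a body at 80.7% and 54.2% and a promoter at 10.3% and 45.9%. SOX5, a transcription factor gene, THSD7B and SNTG1 lay wholly inside gain bins. Their bodies averaged 77.9%, 69.9% and 73.2% in OCI-AML3 and 56.5%, 50.9% and 52.1% in AML5. CSMD1 had 1007 kb inside, 48.9% of its length, and CNTN4, a contactin gene, had 800 kb, 83.4% of it. Body levels were higher in OCI-AML3 in each of these 10 genes, by 7.64 points in CSMD1 up to 26.5 in SGCZ. The genes were named for their bases inside gain bins, so this direction is largely set by the rule. The promoters of these genes went both ways. In all, 355 of 19229 protein-coding genes touched a gain bin and 144 lay wholly inside.

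Gene families were counted by the TSS of their members. Over all protein-coding genes, 218 of 17896 (1.22%) had their TSS in a gain bin. Of the olfactory receptors, which sense odorants and lie in clusters, 24 of 412 (5.83%) did, but 325 (78.9%) lay in bins lower in OCI-AML3 by more than 10 points, against 6460 (36.1%) of all protein-coding genes. The 24 came from few places. In chr1:158300001-158800000 alone there were 13 of them. OR4K13, OR4K17 and OR4L1 shared 1 bin at 79.6% in OCI-AML3 and 50.2% in AML5. Of 63 protocadherins, 4 lay in gain bins and 22 (34.9%) in bins lower in OCI-AML3 by more than 10 points. PCDH20 and PCDH9 lay in bins with differences of 30.04 and 17.9 points, though the PCDH20 promoter was at 6.57% in OCI-AML3 and 34.7% in AML5 and that of PCDH9 at 12.2% and 12.8%. PCDHAC1 and PCDHAC2 shared a bin with a difference of 14.6 points.

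Of 22 classical and type II cadherins, 2 lay in gain bins. The CDH10 promoter, with 41 sites, stood at 78.7% in OCI-AML3 and 48.9% in AML5. The CDH6 promoter, with 106 sites, stood at 23.6% and 53.5%. Among 23 glutamate receptors, which carry excitatory signals between neurons, 4 lay in gain bins, and the largest bin differences were those of GRIK4 at 17.7 points, GRIN2B at 14.8 and GRIA4 at 12.7. The GRIN2B promoter was at 29.5% and 62.6%, and that of GRIA4 at 20.9% and 56.1%. Among 38 ADAM and ADAMTS proteases, 3 lay in gain bins, and the ADAMTS2 promoter was at 9.82% and 44.2%. Those of ADAMTS9 and ADAMTS12 stood at 4.29% and 32.4% and at 45.8% and 45.4%. Of 90 potassium channel genes, KCND2 and KCNIP4 lay in gain bins. CNTN5 was the member among 17 contactins, neurexins and neuroligins, SLIT2, an axon guidance gene, among 25 semaphorins, slits and ROBO receptors, and ZNF721 among 476 zinc finger genes named ZNF. In each of these lists more members lay in bins lower in OCI-AML3 by more than 10 points, as did 36.1% of all protein-coding genes. There lay 10 of the cadherins (45.5%), 15 of the glutamate receptors (65.2%), 16 of the proteases (42.1%) and 48 of the potassium channel genes (53.3%). The same held for 9 of the contactin group (52.9%), 14 of the semaphorin group (56%) and 144 of the ZNF genes (30.3%).

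Of 26 myeloid lineage genes, which fit the cell type of both lines, MNDA alone lay in a gain bin. It encodes a nuclear antigen of myeloid cells, and its bin stood at 75.1% in OCI-AML3 and 63.9% in AML5, next to the olfactory receptors on chromosome 1. Its promoter stood at 48.4% and 52.8%. No gain bin held the TSS of a taste receptor (0 of 26), a GABA or glycine receptor (0 of 18), a defensin (0 of 45), a keratin or keratin-associated protein (0 of 149), a cytochrome P450 or UGT enzyme (0 of 75), a serpin (0 of 32) or an interferon (0 of 22). The same held for the T and B lymphoid lineage genes (0 of 27), the HOX genes (0 of 39) and the DNA methylation enzymes (0 of 9). With 1.22% of all protein-coding genes in gain bins, a count of 0 in lists of this size is near the background. Neighbours in a cluster share a bin, so these counts are not counts of independent genes.

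MicroRNA genes were present too, 108 of 2695 (4.01%) by position, against 1.22% of protein-coding TSSs and 6.47% of all bins, and 26 of the 108 were matched in the RefSeq table used (GRCh38.p14). The cluster of MIR99A, MIRLET7C and MIR125B2 on chromosome 21, singled out after the values were seen, shares 1 gain bin. These microRNAs are known from blood stem cells and leukemia. Their main mature sequences, with the seed (bases 2 to 8) in capitals, show 3 different seeds.
hsa-miR-99a-5p: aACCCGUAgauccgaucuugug
hsa-let-7c-5p: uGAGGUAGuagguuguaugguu
hsa-miR-125b-5p: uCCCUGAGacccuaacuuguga
The bin stood at 79.5% in OCI-AML3 and 54.5% in AML5. Within 2000 bp of the genes the lines did not follow the bin everywhere. Around MIR99A, 23 sites averaged 71.6% in OCI-AML3 and 83.7% in AML5. Around MIRLET7C, 14 sites averaged 84.7% and 78.1%, and around MIR125B2, 37 sites averaged 92.6% and 76.1%. The windows of MIR99A and MIRLET7C overlap over most of their length, so their averages are not separate measurements.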

How the data were processed

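WGBS libraries of OCI-AML3 and AML5 were analysed, 1 per line. The authors mapped the read pairs to hg19 (Bismark and Bowtie 0.12.8, per the submitters' processing notes). Whether duplicate reads were removed is not given in the sources used here. The deposited files give, for each CpG, a raw count of calls of either state, with both strands summed by the authors. The methylated column was settled from the mitochondrial genome, where 0.168% of calls in OCI-AML3 and 0.101% in AML5 were methylated. Each autosomal CpG matched a CG of GRCh37. Genes were taken from GENCODE v44 lifted to GRCh37.

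Levels were computed per CpG and averaged per bin as stated in the text. No comparison between the lines was tested, since the contrast chose the bins and no replicate exists. The members and the 20 gene lists were chosen with earlier results of these data known. The rule for naming took the 10 bins with the largest difference, the 5 longest runs with at most 6 genes each, the 3 bins on each side of the threshold, the 10 genes with the most bases in gain bins, the 8 promoters furthest in each direction, and per list the 3 members with the largest bin difference. The sequences of isolated sites and of stretches before a TSS and the microRNA cluster were added after the values were seen. The sequence windows that the rule also set are not reported here. On simulated counts for chromosome 21 with 350 bins in all, 20 of 20 bins implanted with a 20-point difference were recovered, with 0 false. That size lies well above the cut of 10 points, so this checks the code and not the bins near the cut. The repeat-masked share was not computed, as the genome used here marks no repeats. Alternatives covered read minimum, pooling, CpG density, bin size and borders, threshold, centring, depth and, added later, chromosome 13. Python 3.11.15, numpy 2.4.6, pandas 2.3.3, scipy 1.17.1 and matplotlib 3.10.9 were used.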

Additional observations from a re-analysis of the deposited data

How the results depend on the processing

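The 16 bins and the 16 promoters that the naming rule set by size of difference or by the threshold were recomputed. Of their 64 and 48 values, 0 changed sign, which carries little weight at differences of this size. Bins near the threshold crossed it in both directions. The bin chr13:86700001-86800000, above it, fell to 7.10 points with more than 10 reads. The bin chr12:59500001-59600000, under it, rose to 10.3 points with pooled calls. Other named promoters and bins were not recomputed. With 200 kb bins, 801 of 13415 bins were gain bins, and with a difference over 20 points 823 of 26390 were. With the median difference of all bins subtracted they numbered 2921 of 26390. With relative depth between 0.8 and its inverse in both lines they numbered 528 of 10527. In this order, runs of 5 or more bins numbered 47, 54, 189 and 11, and the share without a protein-coding gene was 59.6%, 67.4%, 60.8% and 54.2%. The median difference was 20.7 points with at most 5 other CpGs, 17.9 with no density limit, 15.7 with a difference over 5 points, 25.8 with over 20, 12.2 with the median subtracted and 18.6 with the depth limits. At CpG-dense sites these were 10.8, 12.5, 8.83, 15.1, 6.83 and 10.6 points. The median ratio of relative depth was 0.948 with at most 5 other CpGs, 0.909 with no density limit, 0.910 with 200 kb bins, 0.926 with the median subtracted, 0.986 with the depth limits and 0.927 without chromosome 13, an alternative chosen after seeing the data. Stricter thresholds and depth limits keep fewer bins by construction, and larger bins are fewer from the start. Subtracting the negative median lowers the cut, and a changed cut moves the median difference as well. The cause of the other shifts was not tested. Without the density limit, 1454 of the 1708 gain bins were shared, and with more than 10 reads 1678 of the 1705 that could be tested.

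No paired analysis was possible because each line has 1 library, and for the same reason no library could be left out. At median depths of 28 and 31 calls, a single CpG is measured coarsely.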
